A study of Homo sapiens with 6 samples.

Results

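Long intergenic noncoding RNAs (lincRNAs) are transcripts without a protein-coding frame with a biotype meant for genes between protein-coding genes, although 19 of the members overlapped their nearest protein-coding gene on the opposite strand and 7 on the same strand. The 128 expressed lincRNAs described here were selected on their own measured level, as genes with the lincRNA biotype and a mean of at least 3 FPKM (fragments scaled by gene length and library size) over the 6 libraries. The table held 7629 lincRNA genes among 58735 genes. Of the 133 lincRNA genes at or above the minimum, 5 were left out as small nucleolar RNA hosts or similar genes (SNHG genes, GAS5, DANCR, ZFAS1 and EPB41L4A-AS1). The rule went by the symbol given with the data, and LINC02001, whose current symbol is SNHG30, stayed a member. The rule itself uses no comparison between the groups, although it was set with earlier results of these data known.

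RNA-seq was performed in PC9-BrM3 cells, a line with high propensity for brain metastasis derived from the lung adenocarcinoma line PC9. AKR1B10, an aldo-keto reductase, was silenced in 3 libraries with lentiviral shRNA vector 1 (BrM3-shAKR1B10), and 3 libraries carried a negative control shRNA (BrM3-shNC), for which the labels give the genotype as WT. Both groups were cells in routine culture from 1 cell line and, for the knockdown, 1 shRNA vector. No source says that the 3 libraries of a group came from separate cultures, so p-values measure the spread between these libraries, which may be technical. AKR1B10 itself stood at 108, 107 and 110.2 FPKM in the BrM3-shAKR1B10 libraries and at 799, 775 and 772 FPKM in the BrM3-shNC libraries, 13.9% of the control mean. The libraries held 16964504 to 18709028 reads on genes, and 3 reads, the smallest level taken as measurable, equal 0.163 to 0.177 FPKM for a transcript of 1000 bases, a limit that covers counting error only. The control library BrM3-shNC 1 stood further from the other 2 controls (chi-square per gene of 4.88 and 5.42) than any other pair of replicates (2.45 to 2.70). The epithelial markers EPCAM, CDH1, KRT8, KRT18 and KRT19 and EGFR were expressed, whereas the lung lineage genes NKX2-1, NAPSA and SFTPB had means of 0.155, 0.483 and 0.00885 FPKM. Summed levels in BrM3-shAKR1B10 and BrM3-shNC were 1.20 to 1.37 and 2.03 to 2.08 FPKM for 5 fibroblast markers (COL1A1 called lower), 0.993 to 1.08 and 1.02 to 1.39 FPKM for 5 leukocyte markers, and 2.10 to 2.37 and 1.52 to 1.79 FPKM for 4 endothelial markers (CDH5 called higher). COL1A2, LUM and KDR were listed at 0 throughout, and the part of such markers in the results below was not tested.

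LincRNAs are transcribed by RNA polymerase II and are often capped and spliced like mRNA, but many stay in the nucleus or on chromatin. Some build nuclear bodies (NEAT1 in paraspeckles, MALAT1 in nuclear speckles), some bind proteins in the cytoplasm (NORAD), and some are the precursors from which microRNAs are cut. A large number start from the same region as a protein-coding gene and run away from it. Most have no known function, and their symbols only name the clone or a running number.

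Silencing AKR1B10 came with lower levels of 14 and higher levels of 16 of the 128 lincRNAs. A gene was called when limma on log2(FPKM + 0.1) gave an adjusted p (Benjamini-Hochberg) under 0.05 and the log2 fold change (BrM3-shAKR1B10 over BrM3-shNC) was larger than 0.5 in either direction. The called lincRNAs made up 23.4% of the members, beside 13.3% of the 13150 genes tested. The lower ones were 10.9% of the members beside 7.45% of all genes, and the higher ones 12.5% beside 5.83%. Without BrM3-shAKR1B10 replicate 3, 8 members were higher (6.25%), beside 5.27% of all genes. Without the fold change limit, 53 members (41.4%) had an adjusted p under 0.05, beside 42.5% of all genes. The libraries of the groups did not overlap for 61 members (47.7%), beside 54.7% of all genes. The members' share was thus above that of all genes for the calls with a fold change limit and below it for the other 2 counts.

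The minimum level bears on these shares. A BrM3-shNC mean below 3 FPKM was found for 14 members, of which 8 were called higher. These 8 were MIR29B2CHG, MIR200CHG, LINC00842, AL359715.1, LINC02331, AC093763.1, AP006621.3 and DUBR. A BrM3-shAKR1B10 mean below 3 FPKM was found for 13 members, of which 7 were called lower. These 7 were LNCAROD, AC068580.2, IGFL2-AS1, AC011450.1, AL390066.1, AC092747.4 and AC103706.1. Among the 101 members with both group means at or above 3 FPKM, 15 were called (14.9%), beside 10.4% of the 8955 genes tested that met the same condition. The median log2 fold change of the members was 0.10, with 77 above 0 and 51 below, against -0.01 for all genes tested. Without BrM3-shNC replicate 2 it was 0.054, and over genes from 5 FPKM it was 0.052. Fewer cells expressing an RNA and less of it per cell cannot be told apart in such bulk libraries.

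**Figure D1:**
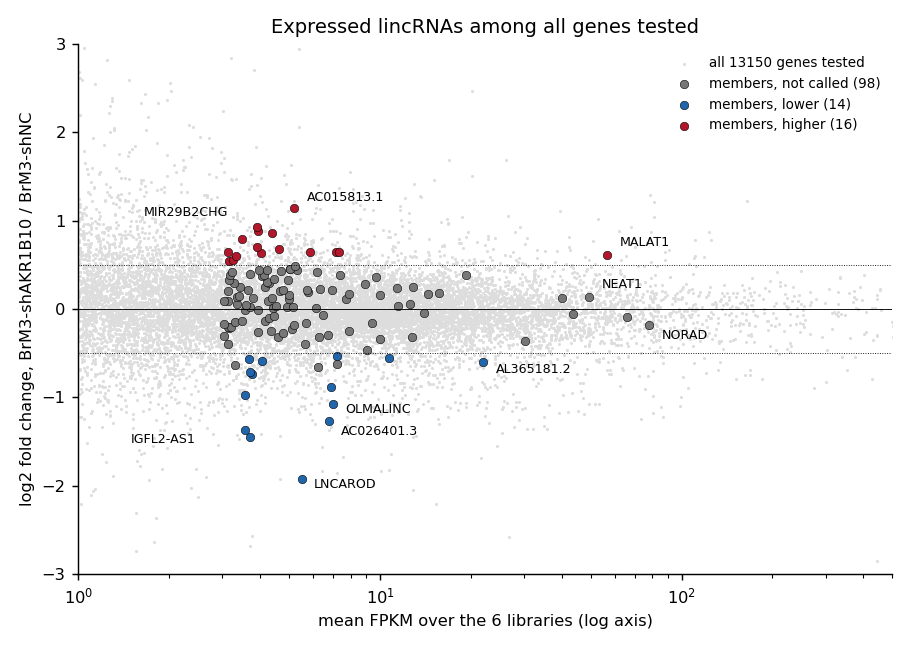
Mean FPKM over the 6 libraries (x axis, log scale) against the log2 fold change between BrM3-shAKR1B10 and BrM3-shNC (y axis) for the 128 lincRNAs (large points, coloured by call) over all 13150 genes tested (small grey points; 57 genes lie outside the axes). The dotted lines mark a log2 fold change of 0.5 in either direction, and most called lincRNAs lie below 10 FPKM, MALAT1 and AL365181.2 being the called members above 20 FPKM.

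The share of all lincRNA members in the transcriptome was also compared. Their FPKM summed to 0.356%, 0.359% and 0.356% of all FPKM in the BrM3-shAKR1B10 libraries and to 0.344%, 0.343% and 0.346% in the BrM3-shNC libraries. The groups did not overlap, with means of 0.357% ± 0.00180 and 0.344% ± 0.00127 (SD, n = 3; exact two-sided permutation p = 0.10, the smallest that 3 against 3 libraries allow). Without MALAT1 and NEAT1 the means were 0.317% ± 6.0e-04 and 0.314% ± 0.00235 (SD, n = 3; exact permutation p = 0.20), and the difference fell from 0.0129 to 0.00258 percentage points. As a percent of reads on genes the members took 0.391 ± 0.00600 and 0.356 ± 0.00856 (SD, n = 3; exact permutation p = 0.10), whereas their summed FPKM of 1065 ± 5.49 and 1053 ± 22.2 overlapped between the groups (exact permutation p = 0.50). MALAT1 alone supplied 6.42% ± 0.307 of the members' summed FPKM in BrM3-shAKR1B10 and 4.27% ± 0.530 in BrM3-shNC (SD, n = 3; exact permutation p = 0.10).

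MALAT1 and NEAT1 are neighbouring genes on chromosome 11 whose RNAs stay in the nucleus. MALAT1 (ENSG00000251562), a regulator of splicing factor localisation in nuclear speckles, stood at 64.9, 72.0 and 68.0 FPKM in BrM3-shAKR1B10 and at 52.6, 41.3 and 41.3 FPKM in BrM3-shNC. All silenced libraries lay above all controls, and the control nearest to them was BrM3-shNC 1. MALAT1 rose 1.52-fold, by 0.61 on the log2 scale (SE 0.0993, adjusted p = 0.00343, limma), and by 0.72 without BrM3-shNC 1. It was the only member above 30 FPKM that was called. The RNA was purified on poly-T beads, and the mature end of MALAT1 is known to be a triple helix in place of a poly(A) tail, so its captured part was not measured.

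NEAT1 (ENSG00000245532), the scaffold of paraspeckles, stood at 50.3, 52.8 and 52.6 FPKM in BrM3-shAKR1B10 and at 47.3, 47.1 and 46.4 FPKM in BrM3-shNC. The groups did not overlap, but the log2 difference was 0.14 (SE 0.0318, adjusted p = 0.0115, limma), below the limit for a call. The short and the long NEAT1 isoform share their first part and were counted as 1 gene of 22767 bases, so they were not separated here.

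The promoter of MALAT1 is shown because MALAT1 was the most abundant lincRNA called. It was taken from RefSeq (GRCh38.p14, plus strand, chr11:65497488-65497787), 250 bases before to 50 after the RefSeq start, which lies 50 bases from the start in the table. Capitals mark matches to the word TGACNNNGC on either strand, the core of the antioxidant response element bound by NRF2.

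MALAT1 promoter: MALAT1

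The word occurred at -231 to -223 on the opposite strand and at -51 to -43 on the strand of the gene, counted from the RefSeq start. A match is a string of letters in this window and not a measured binding site.

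The proteins of the bodies that these RNAs occupy were counted in the same fit, in which 23.1% of all genes tested were lower and 19.4% higher at an adjusted p under 0.05 (limma). Of 14 paraspeckle proteins, 9 were lower (64.3%) and 2 higher (14.3%), with a list median log2 fold change of -0.22, and none passed the fold change limit. Of 8 nuclear speckle proteins, 7 were lower (87.5%) and none higher, with a median of -0.30 and no call. The median over all genes tested was -0.01.

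NORAD (ENSG00000260032), which binds RNA-binding proteins and is linked to genome stability, was the most abundant member. Its level was 70.9, 72.7 and 75.2 FPKM in BrM3-shAKR1B10 and 86.8, 82.8 and 79.1 FPKM in BrM3-shNC. The groups did not overlap, and the log2 difference was -0.18 (SE 0.0432, adjusted p = 0.0148, limma), without a call. Among the NORAD partners, described after their values were seen, KHDRBS1, ALYREF and PUM2 were lower at an adjusted p under 0.05 (log2 fold changes of -0.22, -0.41 and -0.17), and RBMX had -0.05 (adjusted p = 0.434, limma).

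Of the other lincRNAs among the 8 with the highest means, AL365181.2 was called lower and is described with the lower members, and 4 were not called. AC245041.1 had means of 63.8 ± 3.77 and 68.1 ± 3.74 FPKM (SD, n = 3) in BrM3-shAKR1B10 and BrM3-shNC, and AP005233.2 of 42.9 ± 3.52 and 44.8 ± 1.95 FPKM. The libraries of both overlapped between the groups, with log2 fold changes of -0.09 and -0.06. AL035661.1 had means of 42.1 ± 2.86 and 38.4 ± 0.137 FPKM, with a log2 fold change of 0.13 (adjusted p = 0.0790, limma). LINC00942 had means of 26.5 ± 0.336 and 34.0 ± 1.14 FPKM and did not overlap between the groups, and its log2 fold change of -0.36 (adjusted p = 4.4e-04, limma) was below the limit.

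Beside MALAT1, none of the members on the lists for p53, the MYC locus, hypoxia or lung cancer was called. UCA1, first described in bladder carcinoma, stood at 8.26, 7.30 and 7.37 FPKM in BrM3-shAKR1B10 and at 10.8, 10.1 and 10.6 FPKM in BrM3-shNC, with no overlap and a log2 fold change of -0.46 (SE 0.0595, adjusted p = 0.00132, limma). Without BrM3-shAKR1B10 replicate 1 the value was -0.51, past the limit. CRNDE, named for its expression in colorectal neoplasia, stood at 7.43, 7.20 and 6.94 FPKM against 8.95, 8.51 and 8.22 FPKM, with a log2 fold change of -0.25 (adjusted p = 0.00738, limma). TP53TG1, a p53 target, had overlapping groups with means of 15.3 ± 1.61 and 13.5 ± 0.611 FPKM (SD, n = 3) and a log2 fold change of 0.17 (adjusted p = 0.142, limma).

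PVT1, which lies downstream of MYC, stood at 3.62, 3.51 and 4.10 FPKM in BrM3-shAKR1B10 and at 3.42, 2.90 and 3.05 FPKM in BrM3-shNC. The difference was 0.25 on the log2 scale (SE 0.0894, adjusted p = 0.0601, limma). MYC, also named after its values were seen, fell in the same libraries by 0.62 on the log2 scale (adjusted p = 2.9e-05, limma), from a mean of 39.0 ± 0.575 to 25.4 ± 0.465 FPKM (SD, n = 3).

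A microRNA gene was overlapped by 7 members, 5 of them with a microRNA host gene symbol and the other two PVT1 and NEAT1. Of the 5, MIR29B2CHG and MIR200CHG were called higher in BrM3-shAKR1B10, beside 5.83% of all genes tested. Their BrM3-shNC means of 2.66 and 2.81 FPKM lay below the minimum of 3 FPKM, which they met only through BrM3-shAKR1B10. MIR9-3HG had -0.18 as its log2 fold change (adjusted p = 0.0121, limma), and MIR22HG and MIR4458HG did not pass the test (0.16 and -0.17, adjusted p = 0.0505 and 0.197). MicroRNAs pair with their targets mainly through the seed, bases 2 to 8. The mature sequences below, from RefSeq (GRCh38.p14), are those of the 2 called hosts, with the seed in capitals.

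MIR29B2CHG
hsa-miR-29c-3p: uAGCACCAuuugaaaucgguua
hsa-miR-29b-3p: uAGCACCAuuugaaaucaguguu
hsa-miR-29c-5p: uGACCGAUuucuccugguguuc
hsa-miR-29b-2-5p: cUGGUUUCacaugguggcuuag

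MIR200CHG
hsa-miR-200c-3p: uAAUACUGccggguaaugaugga
hsa-miR-141-3p: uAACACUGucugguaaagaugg
hsa-miR-200c-5p: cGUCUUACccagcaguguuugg

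The 3p forms of miR-29c and miR-29b share the seed AGCACCA, and this family is known to target collagen and other matrix mRNAs. The seeds of miR-200c-3p (AAUACUG) and miR-141-3p (AACACUG) differ from each other, and the miR-200 family is known to repress the epithelial-mesenchymal regulators ZEB1 and ZEB2. Mature microRNAs were not measured, so the values below are those of the host transcripts only.

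MIR29B2CHG (ENSG00000203709, chr1:207801518-207879096) stood at 5.16, 5.23 and 5.07 FPKM in BrM3-shAKR1B10 and at 2.85, 2.56 and 2.57 FPKM in BrM3-shNC. The groups were far apart, and the level rose 1.94-fold, by 0.93 on the log2 scale (SE 0.0615, adjusted p = 8.5e-05, limma), with 711 to 1552 reads per library. CD34, its nearest coding gene, averaged 0 and 0.00214 FPKM. MIR200CHG stood at 5.50, 4.11 and 5.64 FPKM against 4.05, 2.03 and 2.35 FPKM. The nearest libraries of the groups nearly met, and its table length of 350 bases left 12 to 35 reads per library. Its log2 fold change was 0.88 (SE 0.258, adjusted p = 0.0321, limma), and the adjusted p ranged from 0.0829 to 0.0950 without each of BrM3-shAKR1B10 1, BrM3-shAKR1B10 3, BrM3-shNC 2 and BrM3-shNC 3. The nearest coding gene PHB2, a prohibitin gene, had -0.30 on the log2 scale (adjusted p = 0.00171, limma).

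AL390719.2 lies beside the other miR-200 cluster. The seed of miR-200a-3p is that of miR-141-3p and the seed of miR-429 that of miR-200c-3p, and both hairpins lie within 2 kb of AL390719.2 but outside the annotated gene. Chosen after its values were seen, this lincRNA had means of 13.7 ± 1.58 and 14.3 ± 3.13 FPKM (SD, n = 3) in BrM3-shAKR1B10 and BrM3-shNC, with overlapping libraries and a log2 fold change of -0.05 (adjusted p = 0.817, limma).

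hsa-miR-200a-3p: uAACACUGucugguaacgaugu
hsa-miR-429: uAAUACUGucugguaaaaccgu

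Of 6 proteins of microRNA processing (DROSHA, DGCR8, XPO5, DICER1, AGO2 and TARBP2), 1 was lower at an adjusted p under 0.05 (16.7%, beside 23.1% of all genes tested), none was higher and none was called.

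LNCAROD had the largest change of all 128 members. It lies on chromosome 10 (chr10:52450874-52755409, minus strand) between MBL2 and DKK1 and is named for activating DKK1, a secreted WNT inhibitor. LNCAROD (ENSG00000231131) stood at 2.45, 2.04 and 2.22 FPKM in BrM3-shAKR1B10 and at 7.90, 9.13 and 9.26 FPKM in BrM3-shNC. The groups were far apart, and LNCAROD fell to 25.5% of the control mean, a log2 fold change of -1.92 (SE 0.0905, adjusted p = 2.7e-05, limma). Its nearest protein-coding gene, MBL2, was listed at 0 in all silenced libraries and averaged 0.0153 FPKM in the controls.

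OLMALINC had the greatest gene length (summed exon bases) and the smallest SE among the 10 lincRNAs with the lowest log2 fold changes. It is named for oligodendrocyte maturation and lies on the same strand as, and downstream of, SCD, which encodes stearoyl-CoA desaturase. OLMALINC (ENSG00000235823, chr10:100373513-100454043) stood at 4.56, 4.50 and 4.32 FPKM in BrM3-shAKR1B10 and at 9.55, 9.47 and 9.50 FPKM in BrM3-shNC, from 595 to 1361 reads per library. It fell to 46.9% of the control mean, a log2 fold change of -1.08 (SE 0.0407, adjusted p = 1.5e-05, limma). SCD had means of 325 ± 2.70 and 334 ± 9.36 FPKM (SD, n = 3), with a log2 fold change of -0.04 (adjusted p = 0.419, limma).

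The OLMALINC promoter (RefSeq, GRCh38.p14, plus strand, chr10:100373326-100373625) is shown because it held several of the words searched. Capitals mark TGACNNNGC at -123 to -115, the AP-1 word TGANTCA at -31 to -25, and the NF-Y word CCAAT at -109 to -105 and at -70 to -66, all on the strand of the gene.

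OLMALINC promoter: OLMALINC

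IGFL2-AS1 and AC068580.2 lie apart from protein-coding genes. IGFL2-AS1 stood at 1.84, 2.12 and 1.87 FPKM in BrM3-shAKR1B10 and at 5.42, 4.93 and 5.19 FPKM in BrM3-shNC, with a log2 fold change of -1.37 (SE 0.0764, adjusted p = 4.3e-05, limma). AC068580.2 stood at 2.85, 1.80 and 1.33 FPKM against 5.80, 4.20 and 6.32 FPKM, with a log2 fold change of -1.45 (SE 0.276, adjusted p = 0.00651, limma). Its spread was wide, with 8 to 39 reads per library. Its nearest protein-coding gene CTSD, a lysosomal protease gene, had 0.18 as its log2 fold change (adjusted p = 0.0592, limma). IGFL1, the nearest coding gene of IGFL2-AS1, was below the level tested, with means of 0.0729 and 0.217 FPKM.

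AC026401.3 and AC092747.4 are single-block transcripts lying on the same strand within the introns of NDE1 and MED21. AC026401.3 stood at 3.91, 3.64 and 4.22 FPKM in BrM3-shAKR1B10 and at 9.27, 9.72 and 9.75 FPKM in BrM3-shNC, so that its log2 fold change was -1.27 (SE 0.0622, adjusted p = 2.8e-05, limma). NDE1, a centrosomal protein gene, was lower in the same libraries (log2 fold change -0.90, adjusted p = 2.7e-05, limma). AC092747.4 stood at 2.89, 2.86 and 2.64 FPKM against 4.89, 4.51 and 4.53 FPKM, with a log2 fold change of -0.71 (SE 0.0639, adjusted p = 2.8e-04, limma). MED21, a Mediator subunit gene, had -0.91 as its log2 fold change (adjusted p = 9.0e-05, limma). Unspliced transcripts of the host genes would give reads in the same bases, and how many of the reads they supplied was not tested.

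AL365181.2 was the most abundant lincRNA called lower. It starts 386 bases from BCAN, the gene of the brain proteoglycan brevican, and runs the other way. AL365181.2 stood at 17.5, 18.1 and 16.9 FPKM in BrM3-shAKR1B10 and at 26.1, 27.4 and 25.8 FPKM in BrM3-shNC, with a log2 fold change of -0.60 (SE 0.0408, adjusted p = 9.7e-05, limma). BCAN was also lower, at 2.96 ± 0.186 against 5.34 ± 0.0808 FPKM (SD, n = 3; log2 fold change -0.83, adjusted p = 1.2e-04, limma).

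AC011450.1 stood at 2.85, 2.43 and 1.83 FPKM against 5.49, 3.46 and 5.35 FPKM, with a log2 fold change of -0.97 (SE 0.220, adjusted p = 0.0129, limma). It shares 21.5% of its exon bases with the leukocyte tetraspanin gene CD37 on the opposite strand, and the described library preparation marked no strand. CD37 had -0.58 as its log2 fold change (adjusted p = 0.00269, limma). Z98257.1 stood at 4.42, 4.97 and 5.04 FPKM against 9.58, 9.41 and 7.95 FPKM (log2 fold change -0.88, adjusted p = 4.4e-04, limma), and its neighbor PLA2G2C averaged 0.124 and 0.333 FPKM. AL390066.1 stood at 2.53, 3.10 and 2.72 FPKM against 5.37, 4.14 and 4.62 FPKM (log2 fold change -0.73, adjusted p = 0.00297, limma), and its neighbor CD58, an adhesion molecule gene, had -0.03 as its log2 fold change (adjusted p = 0.652, limma).

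The remaining 4 lower members, named after their values were seen, had log2 fold changes of -0.59 to -0.53. LINC00857, a lincRNA studied in lung cancer, stood at 8.94, 8.75 and 8.18 FPKM in BrM3-shAKR1B10 and at 13.3, 12.5 and 12.4 FPKM in BrM3-shNC (log2 fold change -0.55, adjusted p = 2.9e-04, limma). The others were AC125807.2, AC103706.1 and LINC01895. LINC01895 (adjusted p = 0.0184, limma) had 37 to 65 reads per library and lost its call without each of BrM3-shAKR1B10 2, BrM3-shAKR1B10 3, BrM3-shNC 2 and BrM3-shNC 3 (adjusted p from 0.0549 to 0.0572).

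AC015813.1 had the largest increase. It is a transcript of 5812 bases on chromosome 17 (chr17:57989039-57994850, minus strand) with no known role, and it stood at 6.97, 7.22 and 7.36 FPKM in BrM3-shAKR1B10 and at 3.27, 3.16 and 3.18 FPKM in BrM3-shNC. The groups were far apart, and the level rose 2.24-fold, by 1.14 on the log2 scale (SE 0.0462, adjusted p = 1.7e-05, limma). It shares 6.52% of its exon bases with the protein-coding gene AC015813.2, which was listed at 0 in all 6 libraries.

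LINC00482 and LINC00842 followed MIR29B2CHG and MIR200CHG in size. LINC00482 stood at 5.41, 5.70 and 5.93 FPKM in BrM3-shAKR1B10 and at 2.73, 3.50 and 3.04 FPKM in BrM3-shNC (log2 fold change 0.86, SE 0.0943, adjusted p = 6.3e-04, limma), beside TMEM105 with 0.36 (adjusted p = 0.00776). LINC00842 stood at 4.28, 4.57 and 4.46 FPKM against 2.81, 2.43 and 2.37 FPKM (log2 fold change 0.79, SE 0.0791, adjusted p = 4.6e-04, limma), beside the annexin gene ANXA8L1 with 0.48 (adjusted p = 3.8e-04). Neither neighbor passed the fold change limit.

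AL359715.1 stood at 4.54, 5.15 and 4.89 FPKM in BrM3-shAKR1B10 and at 2.97, 2.78 and 3.11 FPKM in BrM3-shNC (log2 fold change 0.70, SE 0.0706, adjusted p = 4.7e-04, limma). AC073046.1, which starts 1272 bases from the start of the DNA demethylase gene TET3, stood at 6.38, 4.97 and 5.78 FPKM against 3.35, 3.79 and 3.37 FPKM (log2 fold change 0.68, adjusted p = 0.00221, limma). Both had groups that did not overlap. TET3 had -0.09 as its log2 fold change (adjusted p = 0.257, limma), and BCKDHB, the branched-chain keto acid dehydrogenase gene next to AL359715.1, had 0.33 (adjusted p = 0.00696, limma).

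LINC01269, named after its values were seen, stood at 8.37, 8.74 and 8.99 FPKM in BrM3-shAKR1B10 and at 6.25, 4.81 and 5.64 FPKM in BrM3-shNC (log2 fold change 0.64, adjusted p = 0.00213, limma). It ends 10373 bases from MAP3K9, a kinase gene of the JNK pathway, which was itself higher (log2 fold change 0.58, adjusted p = 6.3e-04, limma). LINC02331 stood at 3.85, 3.22 and 4.40 FPKM against 2.99, 1.77 and 2.55 FPKM (log2 fold change 0.65, SE 0.201, adjusted p = 0.0389, limma), with 18 to 47 reads per library. Its nearest coding gene BMP4, a signaling ligand gene 98854 bases away, had 0.80 as its log2 fold change (adjusted p = 0.0109, limma). The call of LINC02331 was lost without each of 4 libraries (BrM3-shAKR1B10 1 and 3, BrM3-shNC 2 and 3; adjusted p from 0.0631 to 0.115).

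CH17-340M24.3 stood at 7.95, 7.87 and 11.1 FPKM in BrM3-shAKR1B10 and at 5.10, 5.83 and 5.96 FPKM in BrM3-shNC (log2 fold change 0.65, adjusted p = 0.0109, limma). Library BrM3-shAKR1B10 3 was far above the rest, and without it the log2 fold change was 0.49, under the limit. It starts 153 bases from ATP6AP1, a proton pump subunit gene with a log2 fold change of 0.40 (adjusted p = 1.4e-04, limma). AC138393.3 stood at 7.01, 7.06 and 7.18 FPKM against 3.33, 5.47 and 4.97 FPKM (log2 fold change 0.65, adjusted p = 0.0228, limma). Its low control was BrM3-shNC 1, without which the log2 fold change was 0.43, under the limit. The call was also lost without each of BrM3-shAKR1B10 1, 2 and 3 (adjusted p of 0.0602, 0.0596 and 0.0647, limma). Its neighbor FBXO28 had -0.25 (adjusted p = 0.00879).

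Besides MALAT1, the remaining higher members were FLJ20021, AC093763.1, AP006621.3 and DUBR, named after their values were seen. Their log2 fold changes were 0.63, 0.60, 0.56 and 0.54, and each lost its call without at least 2 of the libraries. FLJ20021 had overlapping groups (5.80, 3.79 and 5.14 FPKM against 3.04, 2.47 and 3.95 FPKM, adjusted p = 0.0495, limma).

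**Figure D2:**
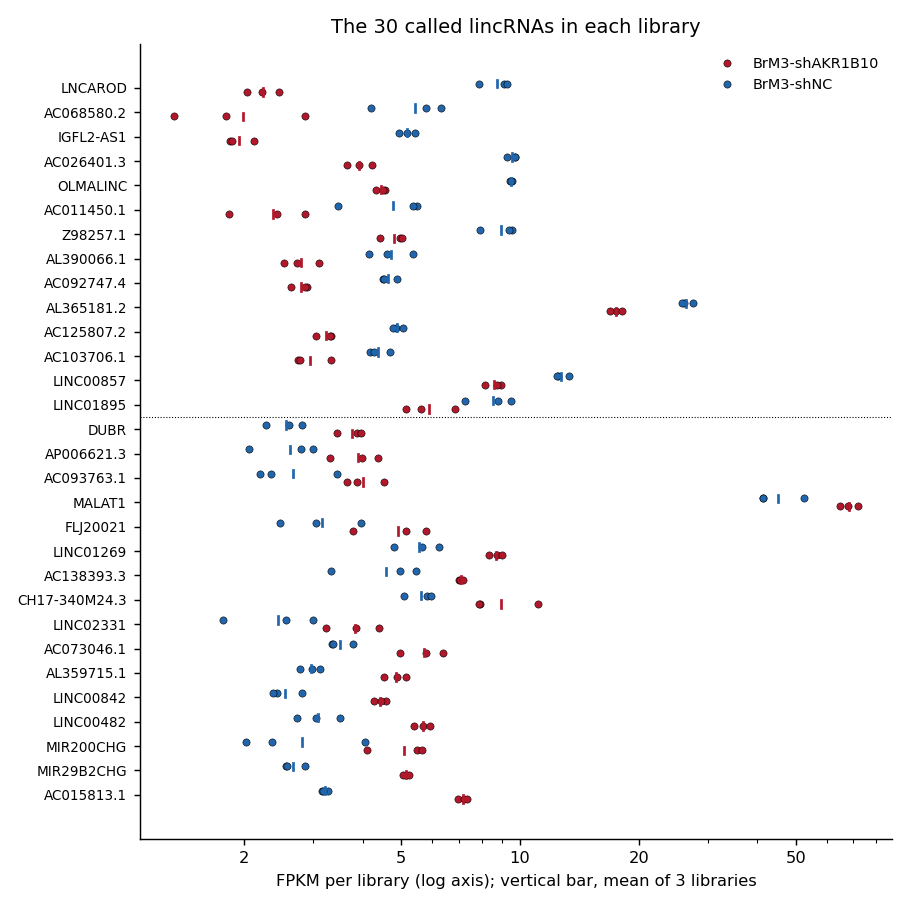
FPKM in each library (x axis, log scale) of the 30 called lincRNAs, ordered by log2 fold change from LNCAROD at the top to AC015813.1 at the bottom, with the lower members above the dotted line. Points are single libraries, vertical bars the mean of 3 libraries, red is BrM3-shAKR1B10 and blue BrM3-shNC. The libraries of LNCAROD, OLMALINC, MIR29B2CHG and AC015813.1 lie far apart between the groups, whereas those of FLJ20021 overlap.

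The lincRNAs were compared with their nearest protein-coding gene, since lincRNAs often share a promoter or a transcription unit with it. A tested neighbor was found for 97 members, and 63 of these pairs had fold changes of the same sign (21 both below 0 and 42 both above). Pearson's r over the 97 pairs was 0.351 and Spearman's rho 0.282. These values describe genes measured in the same libraries, which are not independent.

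The pairs were also grouped by position. Overlap on the same strand gave 5 of 6 pairs with the same sign, overlap on the opposite strand 11 of 15, and divergent starts within 1 kb 12 of 19. More than 10 kb apart, 18 of 30 pairs had the same sign, with r = 0.173 and rho = 0.211. The 45 pairs overlapping or within 1 kb had r = 0.461 and rho = 0.238, so the rank values differed little. For the 23 called members with a tested neighbor, 16 pairs had the same sign (r = 0.511), and 6 of the neighbors were themselves called (26.1%). The 97 pairs held 93 distinct neighbors, of which 12 were called (12.9%), beside 13.3% of all genes tested. The 6 were NDE1, MED21, BCAN and CD37 among the lower and MAP3K9 and BMP4 among the higher genes.

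**Figure D3:**
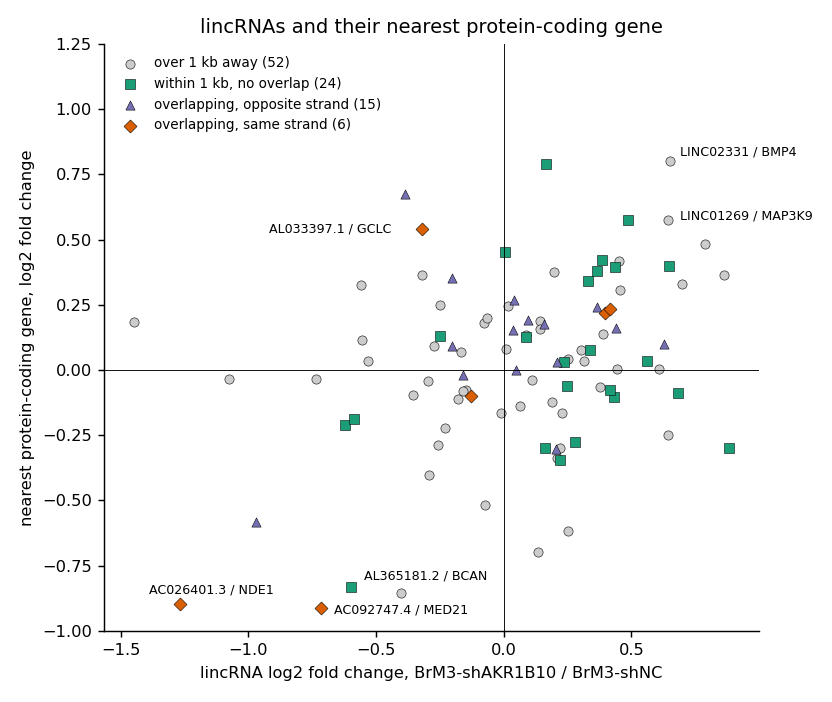
Log2 fold change of a lincRNA (x axis) against that of its nearest protein-coding gene (y axis) for the 97 pairs in which both were tested, with symbols by relative position. NDE1, MED21 and BCAN lie with their lincRNAs in the lower left, and AL033397.1 with GCLC lies in the upper left.

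Of the 21 overlapping pairs, 5 had fold changes of opposite sign, and in 2 of these, named after their values were seen, the neighbor was called higher. AC084018.1 had -0.39 as its log2 fold change (adjusted p = 0.0571, limma) and RHOF had 0.68 (adjusted p = 0.00788, limma). AL033397.1 runs through GCLC on the same strand and shares 13.2% of its exon bases with it. The lincRNA stood at 11.8, 11.7 and 10.7 FPKM in BrM3-shAKR1B10 and at 14.8, 14.5 and 13.4 FPKM in BrM3-shNC (log2 fold change -0.32, adjusted p = 0.00543, limma). GCLC, the catalytic subunit of glutathione synthesis, rose from 11.5 ± 0.134 to 16.8 ± 0.364 FPKM (SD, n = 3; log2 fold change 0.54, adjusted p = 7.2e-05, limma). In contrast, the divergent transcript OSER1-DT, also named after its values were seen, and OSER1 had log2 fold changes of 0.44 and 0.40 (adjusted p = 0.0187 and 7.5e-04, limma).

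RefSeq promoters of 300 bases were matched for 49 members, of which 38 had a RefSeq start within 100 bases of the start in the table. The word TGACNNNGC occurred on either strand in 12 of the 49 (24.5%), beside 13.3% of all 34943 promoters. The MYC word CACGTG occurred in 12.2% beside 7.23%, TGANTCA in 12.2% beside 7.72%, and CCAAT in 40.8% beside 34.6%. TATAAA occurred in none of the 49, beside 11.6% of all promoters. Of the 12 called members with a matched promoter, 5 held TGACNNNGC, and 7 of the 37 members that were not called did.

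The members differed in depth and error from the genes tested as a whole. They had a median of 116 reads per library, against 528 for all genes tested, and a median SE of the log2 fold change of 0.107 against 0.0699. A mean under 100 reads was found for 59 members, of which 4 were lower and 10 higher (23.7%), beside 17.0% of all genes tested at that depth. Of the 69 members with 100 reads or more, 10 were lower and 6 higher (23.2%), beside 12.5% of all genes at that depth. These shares include members with a group mean below the minimum of 3 FPKM. Among members with both group means at or above it, 14.9% were called, beside 10.4% of genes meeting the same condition. Over leave-one-out fits, 13 of the 14 lower members and 8 of the 16 higher members kept their call without each of the 6 libraries.

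**Figure D4:**
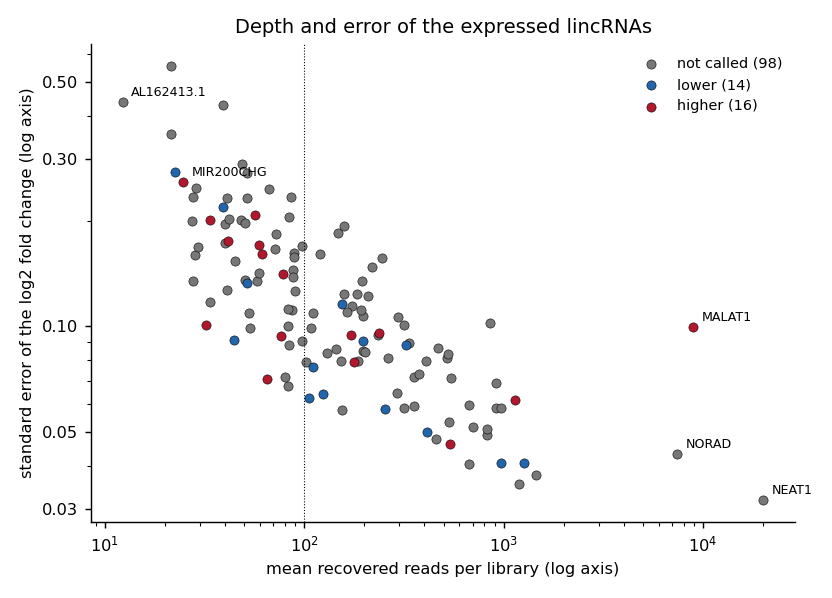
Mean reads per library (x axis, log scale) against the standard error of the log2 fold change (y axis, log scale) for the 128 lincRNAs, coloured by call, with a dotted line at 100 reads. The error falls from over 0.3 for some of the shallowest members to 0.0318 for NEAT1, and MALAT1 has an error of 0.0993 at a depth at which NORAD has 0.0432.

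Large differences without a call were found at low depth. AL162413.1, AC025176.1 and AC093484.4, named after their values were seen, had log2 fold changes of -0.66, -0.63 and -0.62 with adjusted p of 0.263, 0.200 and 0.283 (limma). The libraries of AL162413.1 held 5 to 25 reads. AC068580.2, with 8 to 39 reads, and MIR200CHG, with 12 to 35 reads, were called, at larger fold changes.

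Gene structure and biotype were also compared by counts. Of the 36 members with a single exon block, 5 were lower and 2 higher (19.4%), and of the 92 with several blocks, 9 were lower and 14 higher (25.0%). The 66 members that overlap no other gene had 8 lower and 6 higher (21.2%), and the 32 that share exon bases with another gene had 1 lower and 4 higher (15.6%). Among the 280 lincRNA genes tested below the minimum of 3 FPKM or left out by name, 18.2% were called, and among the protein-coding genes tested 12.9%. The counts of members again include those with a group mean below 3 FPKM.

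Most RNAs on the general lists of known noncoding RNAs were no members, through a level below the minimum, another biotype or a symbol that was not found in the table. CRNDE of the 13 RNAs listed for lung cancer, UCA1 of the 6 listed for hypoxia, PVT1 of the 7 listed for the MYC locus, and NORAD and TP53TG1 of the 9 listed for p53 and genome stability were members, beside MALAT1 and NEAT1. TUG1, MIR31HG and H19 had means of 17.8, 8.37 and 5.53 FPKM but other biotypes, with log2 fold changes of -0.15, 0.56 and 0.03, and MIR31HG was called higher (adjusted p = 0.0117, limma). FTX and JPX, X-inactivation regulators, were below the minimum, as FTX averaged 1.99 FPKM (log2 fold change 0.62, adjusted p = 0.00680, limma). LUCAT1, an RNA induced by oxidative stress and annotated as antisense, had -0.32 as its log2 fold change (adjusted p = 0.00846, limma).

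Among the proteins that degrade or bind nuclear RNA, 22 of nuclear RNA decay (the exosome, its helicase MTREX and cofactors) had 7 lower (31.8%, beside 23.1% of all genes tested) and 1 higher (4.55%, beside 19.4%) at an adjusted p under 0.05, with a median of -0.15 and no call. Of 6 genes of Polycomb repressive complex 2, which many lincRNAs are reported to bind, 5 were lower at an adjusted p under 0.05 (83.3%, beside 23.1% of all genes) and 1 was called, the methyltransferase EZH2 (24.0 ± 1.45 against 37.5 ± 0.162 FPKM, SD, n = 3; log2 fold change -0.64, adjusted p = 1.3e-04, limma).

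At the minimum of 3 FPKM itself, the members just inside were MIR4458HG, AL450326.1 and LY6E-DT, with means of 3.031, 3.037 and 3.050 FPKM. The lincRNA genes just outside were AC100860.1, AC092910.3 and Z68871.1, with means of 2.995, 2.986 and 2.977 FPKM.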

How the data were processed

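Total RNA of 3 BrM3-shAKR1B10 and 3 BrM3-shNC libraries was enriched with poly-T beads and sequenced by the authors, who aligned reads with HISAT2 2.0.5 and counted them per gene with featureCounts 1.5.0-p3. The authors deposited FPKM for 58735 genes, with no pooling of replicates. No genome build is given in the paper's text, but identifiers, positions and lengths of all 58735 genes match GENCODE 29 (GRCh38). Strand use, reads on overlapping genes and multiple alignments are not given in the sources used here. The second strand was made with dNTP, so no strand is marked. The deposited FPKM, with gene length, gave whole reads (within 0.05 read) for 100% of values.

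Groups came from the labels. Genes with a mean of at least 1 FPKM (13150) were fitted as log2(FPKM + 0.1), using limma 3.58.1 under R 4.3.3 (lmFit, eBayes with trend) and adjusted by Benjamini-Hochberg. Fold changes are on this scale and understate changes of low genes. A call required an adjusted p below 0.05 and a log2 fold change beyond 0.5 in either direction, the limits used in the study. Shares per library were compared by exact two-sided permutation tests (scipy 1.17.1). Scripts were tested on simulated data.

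The members, gene lists and tests were chosen with earlier results of these data known. By rule, the genes named are AKR1B10, the 8 members highest by mean, the 10 lowest and 10 highest called members without overlap, members on the lists or hosting microRNAs, their nearest coding genes, called partner proteins, and 3 lincRNA genes on either side of the minimum. Other genes, including cell type markers and other genes of the lists, were named after their values were seen. Alternatives covered the pseudocount, filter, scaling, model, reads (limma voom), thresholds, replicate block, member choice and left-out libraries. Results on some genes are not reported here.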

Additional observations from a re-analysis of the deposited data

How the results depend on the processing

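The number of lower and higher members was 14 and 16. It stayed within 1.5 times of these under pseudocounts of 1 and 0.01, TPM, median-of-ratios and quantile scaling, no variance trend and limma voom on recovered reads, none of which moved the median of all genes by more than 0.1. Without the filter 10 members were higher, beside 940 of the 31583 genes then tested. With genes or members from a mean of 5 FPKM, 7 were lower and 5 higher. Of the 7355 genes tested from that level, 532 were lower and 290 higher. A log2 fold change limit of 1 left 5 lower and 1 higher. No limit gave 23 and 30 members, beside 3044 and 2548 of the 13150 genes tested. Members overlapping no other gene gave 8 lower and 6 higher. In subsets chosen after seeing the data, members with at least 100 reads gave 10 lower and 6 higher, and those sharing no exon base 13 and 12. Leaving out 1 library at a time gave 13 to 16 lower and 8 to 15 higher members, the lowest of 8 higher without BrM3-shAKR1B10 replicate 3. These were 10.2% to 12.5% and 6.25% to 11.7% of the members, beside 7.20% to 7.38% and 4.99% to 5.77% of all genes.

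The replicate numbers did not pair the libraries (correlations of same-numbered libraries -0.0155, 0.00388 and 0.00383). A replicate block gave 13 lower and 16 higher members, with 29 of the 30 calls kept and LINC01895 lost (adjusted p = 0.0547, limma).

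The difference in the members' share of FPKM was 0.0129 percentage points, 0.0242 with the total over protein-coding genes only, 0.00258 without MALAT1 and NEAT1, 0.0347 as a percent of reads on genes, a measure added after seeing the data, and 0.0118 to 0.0135 over the left-out libraries. For the 34 members named by rule, the alternative fits were counted at the fold change limit of 0.5 only, not at 1. Of these 530 values, 510 kept direction and call, 19 lost the call, 1 gained it (UCA1) and none reversed. The calls lost were those of MIR200CHG, LINC02331, AC138393.3 and CH17-340M24.3. The cause of these changes was not tested, beyond the fewer genes or samples that a filter or a left-out library leaves.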
